A study of Mus musculus with 24 samples.

Results

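The distal ends of the lower and the upper jaw were compared in knockout mouse embryos at embryonic day 12.5, on 8 of the 24 expression arrays of the series. The 8 arrays were taken by their sample titles alone: 4 of the knockout distal mandible and 4 of the knockout distal maxilla, each numbered 1 to 4. The samples labelled knockout come from a cross meant to delete Alk5, a signalling receptor of the TGF-beta family (array symbol Tgfbr1), in the neural crest with Wnt1-Cre; the parents were Wnt1cre;Alk5fl/+ and Alk5fl/fl mice on a C57B6 background. Mutants were recognised by their cleft palate and a defect of the skull vault, and control littermates, whose genotype is given no further, supplied 2 arrays of each distal jaw. The knockout proximal jaws, with 4 arrays each, served as a second comparison. Both groups of the main comparison carry the same deletion, so it measures how the jaws differ in the mutant and not what the deletion does. Wnt1-Cre drives recombination in the neural crest lineage, so muscle precursors, endothelium, blood and most epithelium of the knockout face keep an intact Alk5. The labels do not say how many embryos gave a sample or which samples shared one, and the p-values measure only the spread between these samples.

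Most of the mesenchyme of both jaws comes from cranial neural crest that fills the first pharyngeal arch and the tissue around the nose. In the lower arch, endothelin-1 signalling through its receptor switches on Dlx5 and Dlx6 and then Hand2, and this cascade sets lower jaw identity; in the upper jaw it is silent. The skeletal muscle of the mandible and tongue comes from mesoderm, not from neural crest. The upper jaw lies against the nasal pits and the forebrain, whose epithelia make their own homeobox factors and sensory neurons.

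The knockout arrays fell into 2 array sets by features that owe nothing to the genes tested. Among the distal arrays, the hybridisation controls, RNAs added after extraction, averaged 11.52 to 12.36 (log2) in knockouts 1 and 2 and 9.35 to 9.64 in knockouts 3 and 4, against 10.39 to 11.32 in controls. Gapdh and beta-actin were brighter in probe sets near the 3' end than near the 5' end, an excess that grows as RNA degrades, by 0.71 to 1.5 (log2) in knockouts 1 and 2, 0.02 to 0.10 in knockouts 3 and 4 and 0.13 to 0.19 in controls. Each set holds 2 arrays of each jaw, so array set was the block in the tests of the report unless another block is named. This block does not adjust for differences within a set, where the 3' excess was uneven between the jaws. In knockouts 1 and 2 it was 1.34 and 1.35 in the mandible and 1.5 and 0.71 in the maxilla. In knockouts 3 and 4 it was 0.10 and 0.08 in the mandible and 0.03 and 0.02 in the maxilla. By Xist and the Y-linked Kdm5d, numbers 1 and 3 were male and 2 and 4 female in both distal jaws, so the 2 arrays of a jaw within a set did not come from 1 embryo. Tgfbr1 itself lay between 12.07 and 12.64 on the 8 arrays, and its jaw difference was -0.15 ± 0.12 (SE, adjusted p = 0.587). It was no lower than in controls, where the means were 12.33 ± 0.13 (SD, n = 2) in the mandible and 12.34 ± 0.51 in the maxilla, against 12.32 ± 0.22 (n = 4) and 12.47 ± 0.11 in knockouts. The sources used here do not say which part of the gene is deleted or where this probe set lies relative to it, so its level does not check the knockout labels. Array medians lay between 6.80 and 6.89, and precision is limited by how few arrays there are.

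Of 13837 genes tested with limma, 894 differed between the knockout distal jaws at an adjusted p under 0.05 (Benjamini-Hochberg), which is 6.46% of those tested. In 334 (2.41%) the mandible was higher and in 560 (4.05%) the maxilla, and 165 and 231 of these differed by over 2-fold. At this end of the knockout jaws, the lower jaw was marked by Hand2, Pitx1, Barx1 and Gsc and by nearly all skeletal muscle genes. The upper jaw was marked by Six2, Alx1, Pax7 and Aldh1a3 and by genes of the forebrain, the olfactory epithelium and neurons. The arrays of the jaws did not overlap in 958 genes (6.92%), 364 (2.63%) with the mandible and 594 (4.29%) with the maxilla higher. Of the genes past the threshold, 232 (1.68% of those tested) and 372 (2.69%) were among them. In 90 of the 334 the maxilla mean, and in 151 of the 560 the mandible mean, lay below the filter level of 6.07, where an array measures change poorly. With the replicate number as the block in place of array set, 595 genes passed (4.3%), 236 (1.71%) and 359 (2.59%) by direction, and 229 of the 334 and 343 of the 560 were among them. The count was most sensitive to mandible 1, without which it was 441, and fell to 487, 574 and 522 without mandible 2, 3 or 4 and to 454 without maxilla 3. It rose to 1224 without maxilla 2. In whole tissue, fewer cells of a type and less RNA per cell cannot be told apart.

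**Figure D1:**
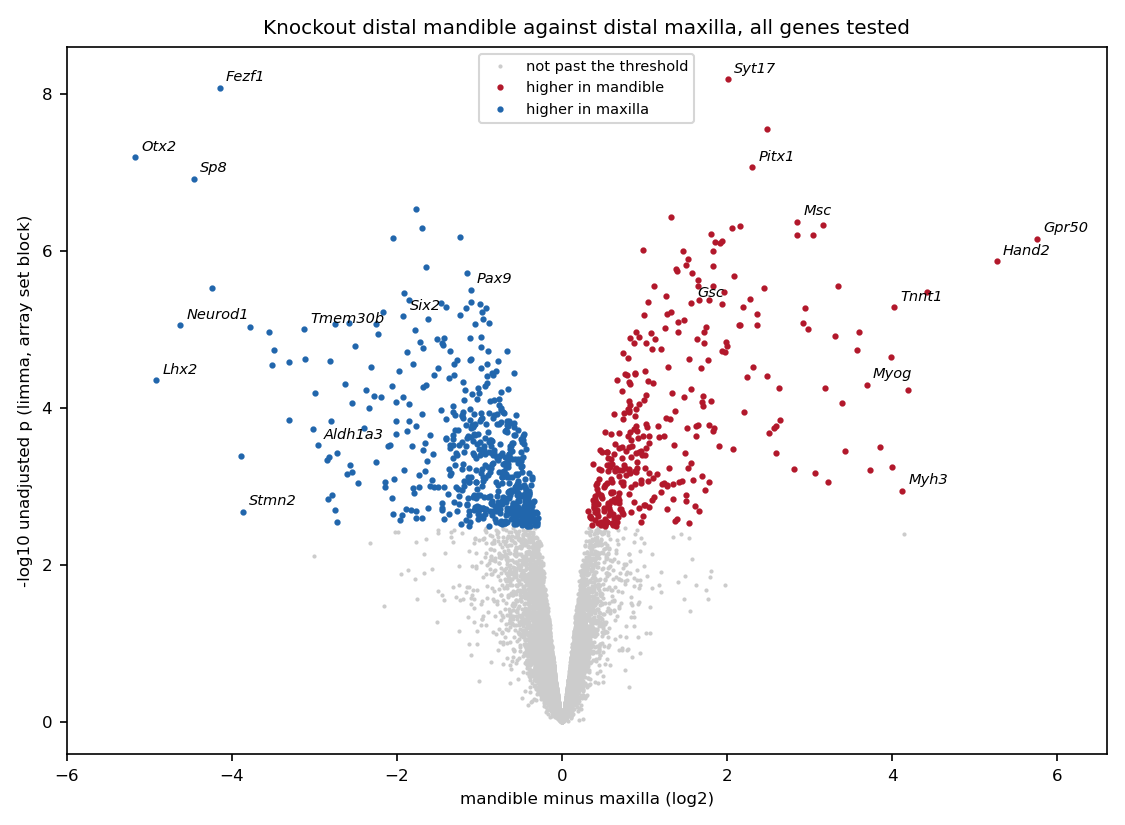
Each point is 1 of the 13837 genes, with the log2 difference of knockout distal mandible minus distal maxilla on the x axis and the negative log10 of the unadjusted limma p on the y axis. Hand2 and Gpr50 lie farthest to the mandible side and Otx2 and Lhx2 farthest to the maxilla side, and the 334 and 560 genes past the threshold are coloured.

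The mandibular identity list, which holds the endothelin pathway and its targets, had 15 measured genes, of which 5 were higher in the mandible, 1 in the maxilla and 9 did not pass, against 2.41% and 4.05% of all genes. With the replicate block 4 and 1 passed. Its median difference was 0.29, against -0.02 over all genes. Hand2, a bHLH factor that acts below Dlx5 and Dlx6 in the lower arch, read 12.38, 12.70, 13.11 and 12.80 (log2) on the mandible arrays and 7.15, 5.77, 8.80 and 8.21 on the maxilla arrays. The lowest mandible array was thus far above the highest maxilla array, by a difference of means of 5.26 ± 0.41 (SE), or 38.4-fold (adjusted p = 0.000685). Its dimmer probe sets moved the same way, by 3.09 and 1.79. Gsc, which encodes the homeodomain protein goosecoid, read 10.22, 10.08, 9.73 and 9.84 in the mandible and 8.96, 8.86, 8.0 and 7.80 in the maxilla, without overlap (1.56 ± 0.14, adjusted p = 0.00115). Barx1, a homeobox factor of molar-forming mesenchyme, stood at 11.01 ± 0.36 (SD, n = 4) against 8.94 ± 0.84, a difference of 2.07 ± 0.34 (SE, adjusted p = 0.0123). Without mandible 2, Barx1 kept its size (1.99) and missed the threshold (adjusted p = 0.0526). Elsewhere the Barx1 means of mandible and maxilla were closer. They were 11.25 and 10.55 in the control distal jaws and 11.96 and 11.49 in the knockout proximal jaws. Bmper, a secreted binder of BMPs that sits in the same list, ran the other way and was higher in the maxilla (-1.31 ± 0.16, adjusted p = 0.00327). Its arrays overlap between the jaws, at 6.06, 6.31, 8.11 and 8.73 in the mandible and 7.51, 7.80, 9.63 and 9.5 in the maxilla. Within each array set the maxilla arrays were the higher.

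The promoter of Hand2 is shown because this gene had the largest difference of the mandibular identity list. The window is the 250 bases before the RefSeq start (GRCm38.p6, chr8:57320733-57320982, plus strand). Capitals mark matches to CANNTG, the E-box core that bHLH factors bind, which reads the same on both strands, and to TAATTA, a homeodomain core.
Hand2: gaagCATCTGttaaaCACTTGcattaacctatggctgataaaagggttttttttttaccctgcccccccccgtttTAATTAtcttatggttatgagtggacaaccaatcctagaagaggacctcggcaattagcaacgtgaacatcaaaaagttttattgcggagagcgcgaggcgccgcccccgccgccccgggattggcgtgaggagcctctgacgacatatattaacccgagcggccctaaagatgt
The window holds 2 matches to CANNTG and 1 to TAATTA. Of 32851 promoter windows of 27025 genes in the same RefSeq table, 66.2% hold CANNTG and 4.84% hold TAATTA. A match is a run of letters and not a binding site.

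The Dlx homeobox genes pattern the arch along its proximal to distal axis, Dlx1 and Dlx2 in both jaws and Dlx5 and Dlx6 in the lower. All 6 were measured, 2 were higher in the mandible (against 2.41% of all genes; 1 with the replicate block) and none in the maxilla, and the median was 0.71. Dlx6 read 9.34, 9.24, 10.18 and 10.02 in the mandible and 8.62, 7.72, 8.78 and 8.21 in the maxilla (1.36 ± 0.22, adjusted p = 0.0116). Dlx1 differed by 1.61 ± 0.35 (adjusted p = 0.0346), but its arrays overlap, its adjusted p was 0.0540 with the replicate block, and leaving out any 1 of 6 of the 8 arrays ended its call (adjusted p 0.0628 to 0.115). Dlx2 (0.96 ± 0.24) and Dlx5 (0.47 ± 0.12) did not pass in all 8 arrays, with adjusted p of 0.0636 and 0.0712. Dlx2 passed without maxilla 4 (1.13, adjusted p = 0.0395) and Dlx5 without maxilla 1 (0.57, adjusted p = 0.0303). Dlx3 and Dlx4 differed by -0.06 ± 0.23 and 0.09 ± 0.16 and did not pass, Dlx3 being described here, after its values were seen, as the remaining member of the family. Dlx1as, which the array annotation names as an antisense transcript at the Dlx1 locus, had one of the 15 largest differences. It read 9.14, 8.74, 7.85 and 9.76 in the mandible and 4.18, 4.12, 4.21 and 6.20 in the maxilla (4.19 ± 0.54, adjusted p = 0.00437). All the maxilla arrays but number 4 were below the filter level.

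Among 20 measured homeobox, T-box and forkhead genes of the oral mesenchyme, 3 were higher in the mandible, 3 in the maxilla and 14 did not pass, with a median of -0.17. The shares over all genes were 2.41% and 4.05%, and 2 and 3 of the list passed with the replicate block. Pitx1, a homeobox factor of the lower jaw and hindlimb, read 11.21, 11.15, 11.21 and 11.65 in the mandible and 9.02, 8.72, 9.26 and 9.0 in the maxilla (2.31 ± 0.12, 4.94-fold, adjusted p = 0.000234), and its second probe set gave 2.45. Lhx6, a LIM homeobox gene of tooth-bearing mesenchyme, was higher by 1.51 ± 0.32 (adjusted p = 0.0316), with overlapping arrays. Its adjusted p was 0.0540 with the replicate block, and leaving out any 1 of 7 of the 8 arrays ended its call (0.0575 to 0.111). The Lhx6 means of mandible and maxilla were 8.96 and 8.90 in the control distal jaws. In the knockout proximal jaws they ran the other way, at 8.18 and 9.96. In the maxilla, Pax9, a paired-box factor needed for palate and teeth, read 9.36, 9.07, 9.90 and 9.70 against 8.08, 8.05, 8.67 and 8.81 in the mandible (-1.10 ± 0.10, adjusted p = 0.000999). The forkhead factor Foxl2 differed by -1.11 ± 0.16 (adjusted p = 0.00636), and both Pax9 and Foxl2 had no overlap. Prrx2, a homeobox gene of arch mesenchyme, differed by -1.04 ± 0.20 (adjusted p = 0.0218), a call that ended without maxilla 1 or 3 or mandible 2 or 4 (0.0554 to 0.0674).

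Palatal shelf genes had 14 measured members with 2 higher in the mandible, 1 (Pax9) in the maxilla and a median of 0.00, against 2.41% and 4.05% of all genes. Meox2, a homeobox gene of the palate and of muscle precursors, was higher in the mandible by 1.56 ± 0.28 (adjusted p = 0.0157, and 0.0540 to 0.0613 without mandible 1, 2 or 4). Hs6st2, a heparan sulphate sulphotransferase, differed by 0.52 ± 0.12 (adjusted p = 0.0490, 0.106 with the replicate block). Leaving out any array other than maxilla 4 ended the call of Hs6st2 (0.0748 to 0.154). Tooth germ genes had 15 measured members, of which Barx1 and Lhx6 were higher in the mandible and Pax9 in the maxilla, and their median was -0.09.

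Hox genes mark the second and later arches and are off in first arch neural crest. Of 14 listed, 8 passed the filter on low values, 2 were higher in the mandible (against 2.41% of all genes) and none in the maxilla, with a median of 0.49. Hoxb2 read 7.13, 6.92, 6.92 and 6.63 in the mandible and 5.64, 5.92, 5.89 and 5.80 in the maxilla, where every array was below the filter level (1.09 ± 0.12, adjusted p = 0.00202). Hoxa2, the gene that gives the second arch its identity, read 6.62, 6.47, 4.75 and 4.59 in the mandible and 3.82, 4.20, 3.83 and 3.82 in the maxilla. It was above the filter level in mandible 1 and 2 alone. Its difference was 1.69 ± 0.32 (adjusted p = 0.0195), with an adjusted p of 0.0726 with the replicate block and of 0.0676 to 0.0749 without mandible 1 or 2. In the control mandible the 2 arrays read 5.10 and 9.93. The part of second arch tissue in these values was not tested.

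**Figure D2:**
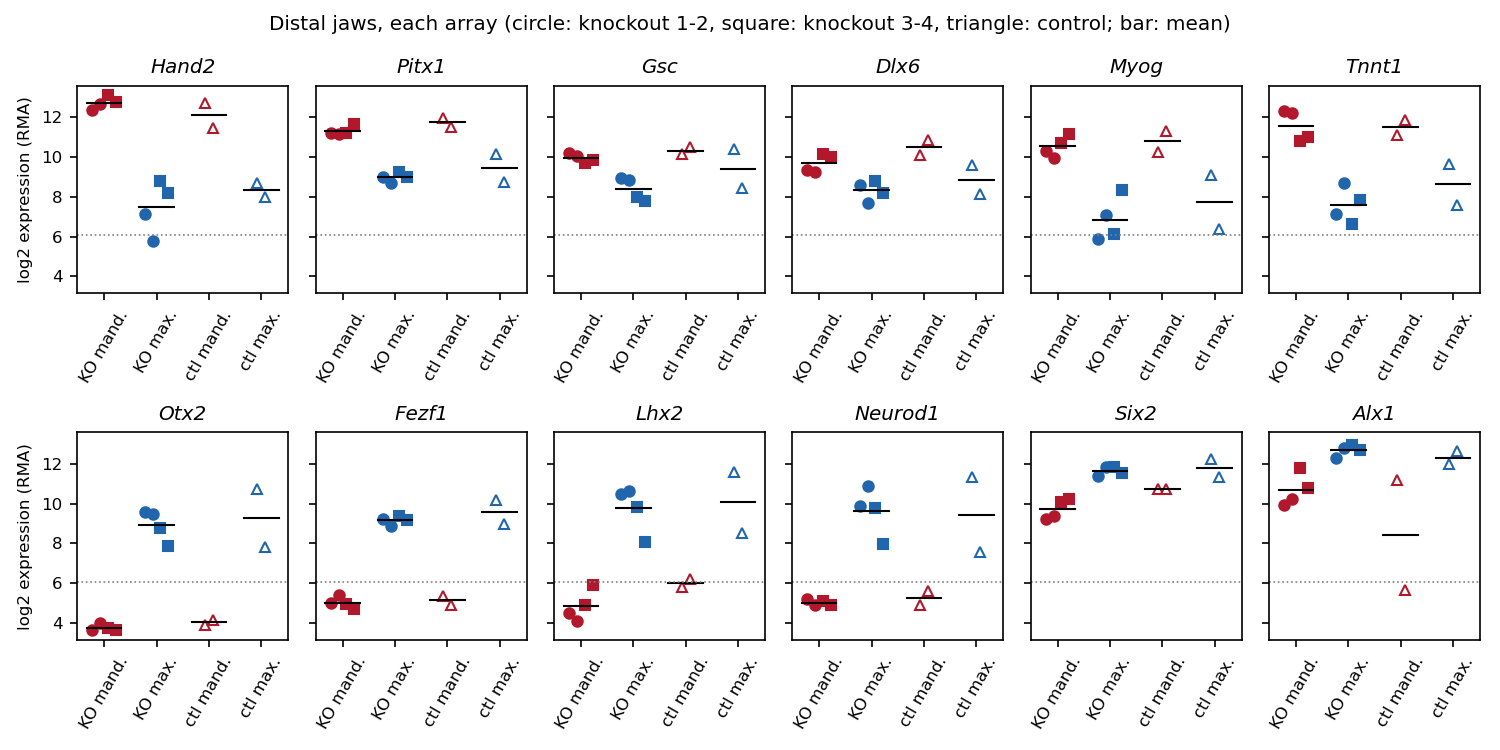
Log2 RMA values of 12 genes on every distal array: knockout mandible and maxilla (filled, circles for numbers 1 and 2, squares for 3 and 4) and control mandible and maxilla (open triangles), with the group mean as a bar and the filter level of 6.07 dotted. The upper row holds genes higher in the mandible and the lower row genes higher in the maxilla, and none of these 12 has overlapping knockout arrays.

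Skeletal muscle and tongue muscle genes formed the group with the most calls. Of 24 measured members, 20 were higher in the mandible (against 2.41% of all genes), 1 in the maxilla and 3 did not pass, and the median difference was 2.88. With the replicate block 19 and 1 passed, and in knockouts 3 and 4 alone 14 were higher in the mandible. Apart from Gpr50, Hand2 and Dlx1as, the 15 largest mandible differences past the threshold and without overlap all belong to genes of muscle. Myog, a bHLH factor that drives myoblasts to differentiate, read 10.34, 9.94, 10.73 and 11.16 in the mandible and 5.88, 7.07, 6.12 and 8.35 in the maxilla (3.69 ± 0.47, 12.9-fold, adjusted p = 0.00396). Myf5, which commits cells to the muscle lineage, read 7.95, 7.81, 7.94 and 8.35 against 3.96, 5.28, 3.55 and 4.87 (3.60 ± 0.37, adjusted p = 0.00156), all maxilla arrays lying below the filter level. Msc and Tcf21, bHLH factors of head muscle precursors, were higher by 2.84 ± 0.19 and 2.15 ± 0.15 (adjusted p = 0.000493 for both). Tcf21 averaged 5.33 over the distal knockout arrays, below the filter level, and its second probe set gave 0.41. The maxilla was not empty of muscle transcripts: maxilla 2 and 4 read higher than 1 and 3 for Myog, and the mean over the whole list was 7.28 and 7.17 there and 6.25 and 5.97 in 1 and 3. On the mandible arrays that mean was 8.84 to 9.27.

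Genes of the contractile apparatus were higher in the mandible too. Tnnt1, the slow skeletal troponin T, read 12.31, 12.25, 10.81 and 11.02 in the mandible and 7.15, 8.68, 6.65 and 7.83 in the maxilla (4.02 ± 0.37, adjusted p = 0.00118). Mymx, a membrane peptide required for myoblast fusion, differed by 4.42 ± 0.38 (adjusted p = 0.00102), its maxilla arrays all lying below the filter level, and Tnnt2, the cardiac and embryonic troponin T, by 3.98 ± 0.45 (adjusted p = 0.00238). Neb, which sets the length of thin filaments, differed by 3.57 ± 0.39 (adjusted p = 0.00205) and Tnni1, the slow troponin I, by 3.39 ± 0.46 (adjusted p = 0.00569). The embryonic myosin Myh3 (4.12 ± 0.83, adjusted p = 0.0260) and the perinatal myosin Myh8 (3.34 ± 0.28, adjusted p = 0.000972) both passed. Myh3 read 5.71, 8.89, 4.84 and 7.74 in the maxilla, and its call ended when any 1 of 6 of the 8 arrays was left out (0.0518 to 0.0892). Calls also ended for Ttn without mandible 1, 3 or 4 (0.0554 to 0.0676), for Myl4 without mandible 1, 3 or 4 or maxilla 3 (0.0513 to 0.0698), and for Tnnc1 (0.0541) and Tnnc2 (0.0504) without mandible 1. With all arrays these 4 differed by 4.00 ± 0.72, 3.73 ± 0.68, 3.43 ± 0.57 and 3.86 ± 0.64, with adjusted p of 0.0169, 0.0176, 0.0127 and 0.0118. Maxilla means below the filter level were also those of Neb (4.11), Myh8 (4.40), Myl4 (5.99), Tnnt2, Ttn and Tnnc2. Actc1, cardiac actin, was picked out after its values were seen: it differed by 4.14 ± 1.04 and did not pass (adjusted p = 0.0587). Pax7, a paired-box gene of muscle stem cells that is also made by facial neural crest, was the member that ran the other way, higher in the maxilla at 11.32, 11.00, 8.71 and 9.53 against 8.56, 8.07, 7.60 and 8.01 (-2.08 ± 0.34, adjusted p = 0.0114). Elsewhere the Pax7 means of mandible and maxilla were close, at 8.15 and 8.37 in the control distal jaws and 8.24 and 8.35 in the knockout proximal jaws. Chrna1, the muscle acetylcholine receptor subunit, was higher in the mandible by 1.83 ± 0.14 (adjusted p = 0.000731).

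Myog and Chrna1 are textbook targets of the myogenic bHLH factors, and their promoters are shown because these genes moved together with Myf5 and Myog here. Each window is the 250 bases before the RefSeq start in GRCm38.p6, printed 5′ to 3′ in the direction of the gene: Myog at chr1:134289754-134290003 on the plus strand and Chrna1 at chr2:73580339-73580588 on the minus strand. Capitals mark CANNTG and, in Myog, CTATATTTA, an AT-rich core bound by MEF2 factors, searched on both strands.
Myog: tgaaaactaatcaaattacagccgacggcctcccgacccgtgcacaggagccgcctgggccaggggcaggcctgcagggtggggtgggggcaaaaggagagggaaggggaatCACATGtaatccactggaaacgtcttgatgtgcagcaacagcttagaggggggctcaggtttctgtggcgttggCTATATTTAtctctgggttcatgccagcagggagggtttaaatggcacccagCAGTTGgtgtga
Chrna1: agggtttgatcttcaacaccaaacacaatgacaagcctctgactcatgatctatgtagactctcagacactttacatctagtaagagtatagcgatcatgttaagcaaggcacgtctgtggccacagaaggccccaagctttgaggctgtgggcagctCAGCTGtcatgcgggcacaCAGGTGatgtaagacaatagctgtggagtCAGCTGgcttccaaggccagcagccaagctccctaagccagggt
Myog holds 2 matches to CANNTG, at 138 to 133 and 12 to 7 bases before the start, and 1 to CTATATTTA at 64 to 56. Chrna1 holds 3 matches to CANNTG, at 92 to 87, 73 to 68 and 44 to 39 bases before the start. No marked matches overlap. CANNTG is common, at 66.2% of the 32851 windows, whereas CTATATTTA stands in 61 of them (0.186%).

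Several mandible genes lie outside these groups. Gpr50, an orphan receptor related to the melatonin receptors, had the largest difference. It read 11.00, 11.00, 9.19 and 8.83 in the mandible and 4.09, 4.17, 4.24 and 4.49 in the maxilla (5.76 ± 0.41, adjusted p = 0.000493), where all 4 arrays were below the filter level, so 54.0-fold is poorly measured at its lower end. Syt17, a synaptotagmin, read 9.03, 8.99, 8.94 and 8.75 against 6.92, 7.04, 6.83 and 6.87 (2.01 ± 0.08, adjusted p = 5.70e-05), with 0.93 on its second probe set. Asb4, an imprinted gene for a SOCS box protein, read 11.35, 11.26, 12.04 and 11.88 against 9.33, 9.75, 9.93 and 10.32 (1.80 ± 0.13, adjusted p = 0.000493).

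The maxillary and frontonasal identity list had 13 measured members, of which 5 were higher in the maxilla (against 4.05% of all genes), 1 in the mandible and 7 did not pass, with a median of -1.25. With the replicate block 4 and 1 passed. The median was -2.09 in knockouts 1 and 2 and -0.93 in knockouts 3 and 4. The member that passed toward the mandible was Nr2f2 (0.93, adjusted p = 0.0356), picked out after its values were seen. In all, 4 of the 13 differences lay above 0. Six2, a homeobox factor of frontonasal mesenchyme, read 11.39, 11.84, 11.85 and 11.57 in the maxilla and 9.22, 9.39, 10.09 and 10.26 in the mandible (-1.92 ± 0.18, 3.79-fold, adjusted p = 0.00131). Alx1, a homeobox factor of the periocular and frontonasal crest, read 12.32, 12.79, 12.97 and 12.72 in the maxilla and 9.91, 10.24, 11.79 and 10.81 in the mandible (-2.01 ± 0.27, adjusted p = 0.00548), so it was strongly expressed in both. Aldh1a3, a retinoic acid synthase of the nasal pit and eye, read 8.81, 9.20, 8.67 and 8.14 in the maxilla and 4.91, 4.60, 6.93 and 6.53 in the mandible (-2.96 ± 0.48, adjusted p = 0.0116). The mandible mean of Aldh1a3 (5.75) lay below the filter level, and its dimmer probe sets gave -1.11 and -1.02. None of these 3 genes has overlapping arrays.

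Genes of the forebrain, eye and olfactory epithelium gave the largest maxilla differences. Of 10 measured markers, 6 were higher in the maxilla (against 4.05% of all genes; 5 with the replicate block) and none in the mandible, and the median was -2.28. It was -2.32 in knockouts 1 and 2 and -1.48 in knockouts 3 and 4. Otx2, a homeobox factor of the forebrain and anterior head ectoderm, read 9.58, 9.49, 8.76 and 7.88 in the maxilla and 3.63, 3.98, 3.74 and 3.67 in the mandible (-5.18 ± 0.27, adjusted p = 0.000221). Lhx2, a LIM homeobox factor of eye, forebrain and olfactory neurons, read 10.47, 10.64, 9.85 and 8.09 against 4.48, 4.08, 4.92 and 5.90 (-4.91 ± 0.61, adjusted p = 0.00364). Fezf1, a zinc finger factor of the olfactory epithelium, read 9.21, 8.88, 9.37 and 9.19 against 4.99, 5.40, 4.97 and 4.70 (-4.15 ± 0.17, adjusted p = 5.70e-05). The mandible was below the filter level on every array for Otx2, Lhx2 and Fezf1, while the maxilla was above it on every array. Sp8, a zinc finger factor of the nasal pit and forebrain, differed by -4.46 ± 0.25 (adjusted p = 0.000275). Six3, a forebrain and eye homeobox gene, differed by -2.38 ± 0.31 (adjusted p = 0.00437). Dmrt3, a DM-domain factor of the olfactory placode and neural tube, differed by -3.31 ± 0.38 (adjusted p = 0.00258). The mandible means of Sp8, Six3 and Dmrt3 (5.72) lay below the filter level. Dimmer probe sets, all averaging below that level, gave -0.83 and -0.02 for Six3 and -0.48 to 0.15 for Dmrt3.

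Neuron markers were below 0 in all 13 measured members, with 6 higher in the maxilla (against 4.05% of all genes), 7 not passing and a median of -2.02. With the replicate block 4 passed. The median was -3.02 in knockouts 1 and 2 and -0.95 in knockouts 3 and 4, where 1 marker passed, and the difference between sets itself passed for 3 of the 13. Neurod1, a bHLH factor of newborn neurons, read 9.91, 10.91, 9.76 and 7.98 in the maxilla and 5.20, 4.88, 5.10 and 4.88 in the mandible (-4.63 ± 0.46, adjusted p = 0.00144), where every array was below the filter level. Nhlh2, another neuronal bHLH factor, differed by -3.89 ± 0.67 (adjusted p = 0.0137, and 0.0513 to 0.0574 without mandible 1 or 2 or maxilla 3). The microtubule regulators Stmn3 (-3.78 ± 0.38, adjusted p = 0.00149) and Stmn2 (-3.87 ± 0.86, adjusted p = 0.0378) are made in neurons. Stmn2 read 5.12 and 5.11 in mandible 1 and 2 but 9.99 and 9.06 in mandible 3 and 4, against 10.68 to 11.42 in the maxilla. Its adjusted p was 0.103 with the replicate block, and leaving out any 1 of 6 of the 8 arrays ended its call (0.0718 to 0.125). The mean over the 13 markers was 6.61, 6.55, 7.34 and 7.46 on the mandible arrays and 9.60, 9.59, 8.68 and 7.84 on the maxilla arrays, without overlap, and maxilla 4 was nearest to the mandible. Elavl4, an RNA-binding protein of neurons, differed by -2.85 ± 0.50 (adjusted p = 0.0144), Ina, an intermediate filament protein, by -2.83 ± 0.49 (0.0139), and Syt1, a synaptic vesicle protein, by -1.07 ± 0.16 (0.00831). The calls of Elavl4 (0.0544 to 0.0605) and Ina (0.0560 to 0.0563) ended without mandible 1 or 2, that of Elavl4 also without maxilla 3. Prph, the peripheral neuron filament, differed by -2.40 ± 0.36 (adjusted p = 0.00860) on its brightest probe set. Its other 3 probe sets gave 0.03 to 0.21. The mandible means of Prph (5.33) and Nhlh2 (5.36) lay below the filter level. The mean over the brain, eye and olfactory list was 5.71 to 6.01 in the mandible and 7.07 to 7.85 in the maxilla, and the part of such tissue in the maxilla values was not tested.

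**Figure D3:**
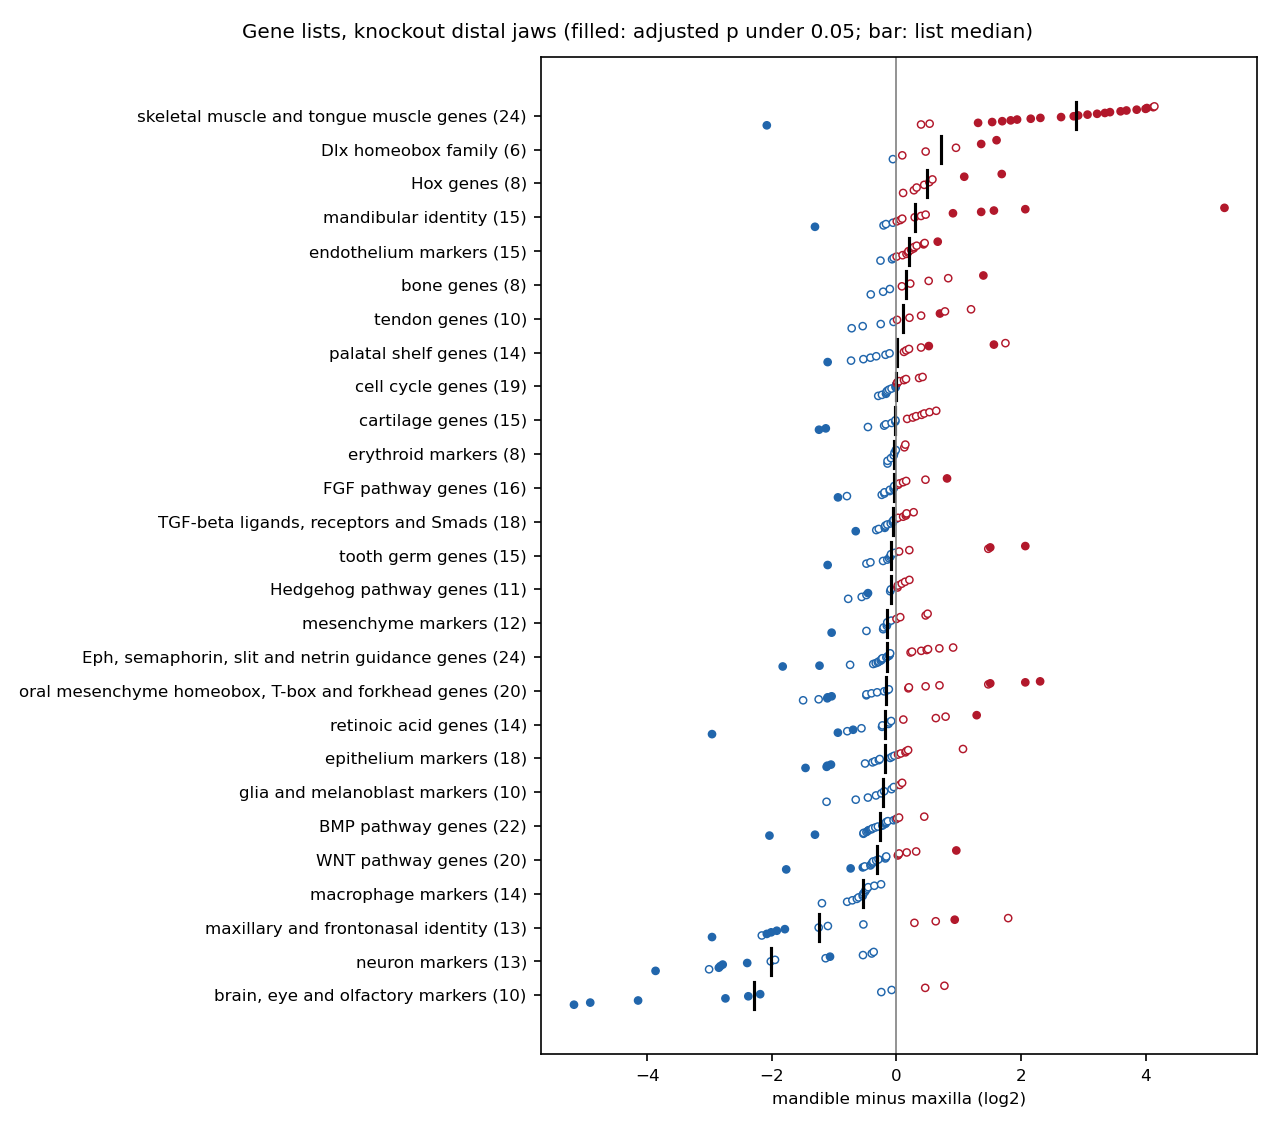
Each row is 1 of the 27 gene lists with its number of measured genes, each point is 1 gene's log2 difference of knockout distal mandible minus maxilla, filled where the adjusted limma p was under 0.05, and the black bar is the list median. Skeletal muscle genes lie farthest to the mandible side (median 2.88), and brain, eye and olfactory markers (-2.28) and neuron markers (-2.02) farthest to the maxilla side.

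Markers of other cell types had medians nearer to 0. Of 18 measured epithelium markers, 4 were higher in the maxilla (against 4.05% of all genes; 2 with the replicate block) and none in the mandible, with a median of -0.19. In 6 of the 18 the difference lay above 0 without passing. Among these were Krt15 (1.07), Trp63 (0.14) and Krt14 (0.07), picked out after their values were seen. Epcam, an adhesion protein of epithelia, read 12.07, 11.89, 12.25 and 11.92 in the maxilla and 10.76, 10.89, 11.10 and 11.18 in the mandible (-1.05 ± 0.10, adjusted p = 0.00144), although its second probe set gave -0.11. The tight junction gene Cldn6 was higher in the maxilla too (-1.11 ± 0.12, adjusted p = 0.00171). So was the tight junction gene Cldn9 (-4.24 ± 0.36, adjusted p = 0.000982, -1.19 on its second probe set). The mandible mean of Cldn9, 5.30, lay below the filter level. Krt8 (-1.46 ± 0.31) and Krt18 (-1.12 ± 0.25), the keratin pair of simple epithelia, passed (adjusted p = 0.0325 and 0.0398) but not with the replicate block (0.0850 and 0.0948), nor without any 1 of 7 of the 8 arrays (0.0558 to 0.0993 and 0.0724 to 0.121). Of 15 endothelium markers 2 were higher in the mandible (against 2.41% of all genes, median 0.19): Cldn5, a tight junction protein of vessels (0.66 ± 0.08, adjusted p = 0.00364), and Egfl7, an endothelial secreted factor (0.44 ± 0.09, adjusted p = 0.0336). Egfl7 did not pass with the replicate block (0.0816) or without any 1 of 6 of the 8 arrays (0.0742 to 0.108). All 14 macrophage markers were below 0 with a median of -0.53, and none passed. The means over that list were 7.36, 7.34, 7.68 and 7.79 in the mandible and 7.61, 8.49, 8.42 and 7.96 in the maxilla, which overlap. None of 8 erythroid, 10 glia and melanoblast or 19 cell cycle genes passed, with medians of -0.04, -0.22 and -0.01. Of 12 mesenchyme markers only Prrx2 passed, and their median was -0.15.

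Counts in the signalling lists stand beside 2.41% (mandible higher) and 4.05% (maxilla higher) over all genes. Of 22 BMP pathway genes 4 were higher in the maxilla and none in the mandible, with a median of -0.26: Bmper, the ligand gene Bmp7 (-0.45 ± 0.09, adjusted p = 0.0207) and the target genes Id3 (-0.53 ± 0.10, 0.0215) and Id4 (-2.04 ± 0.39, 0.0209). Id4 read 7.01, 7.25, 10.77 and 10.46 in the mandible and 9.52, 10.62, 11.87 and 11.64 in the maxilla, higher in the maxilla within each set, and its adjusted p was 0.0535 with the replicate block and 0.0724 to 0.0808 without mandible 1 or 2. The calls of Bmp7 (0.0502 to 0.0744) and Id3 (0.0682 to 0.0766) ended when any of 6 and any of 4 of the 8 arrays was left out. Among 18 TGF-beta ligands, receptors and Smads 1 passed: Smad7, the feedback inhibitor of the pathway, was higher in the maxilla (-0.65 ± 0.10, adjusted p = 0.00838), with -0.19 on its second probe set. The list's median was -0.06, and 1 of 18 is near the share over all genes (6.46% in either direction). Among 20 WNT genes, Wnt11 was higher in the mandible (0.96 ± 0.19, adjusted p = 0.0221). Wnt5a, a ligand of outgrowing mesenchyme (-0.74 ± 0.13, 0.0133), the target Sp5 (-0.54 ± 0.12, 0.0402) and the WNT antagonist Wif1 (-1.77 ± 0.41, 0.0423) were higher in the maxilla. Sp5 (0.0804) and Wif1 (0.0901) did not pass with the replicate block. Left-out arrays ended the calls of Wnt11 (any mandible array, 0.0674 to 0.0742), Wnt5a (mandible 1, 2 or 4, 0.0506 to 0.0560), Sp5 (any of 6, 0.0619 to 0.126) and Wif1 (any of 7, 0.0535 to 0.139).

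Against the same shares over all genes, of 14 retinoic acid genes, Rxrg, a nuclear receptor, was higher in the mandible (1.29 ± 0.15, adjusted p = 0.00284), while Aldh1a3, the retinol transporter Stra6 (-0.70 ± 0.12, 0.0139) and the degrading enzyme Cyp26b1 (-0.94 ± 0.19, 0.0291) were higher in the maxilla. Stra6 (0.0505 to 0.0529) lost its call without mandible 1 or 3 or maxilla 3, and Cyp26b1 (0.0623 to 0.102) without any 1 of 5 arrays. Of 16 FGF genes 1 passed each way, Fgf18 toward the mandible (0.81 ± 0.15, 0.0174) and Fgf17 toward the maxilla (-0.94 ± 0.21, 0.0397, and 0.0710 with the replicate block). Fgf18 lost its call without mandible 3 or maxilla 3 (0.0572 to 0.0620), and Fgf17 without any 1 of 5 arrays (0.0635 to 0.134). Of 11 Hedgehog genes only Gli2, the main activating transcription factor, passed (-0.46 ± 0.07, adjusted p = 0.0114, and 0.0506 to 0.0512 without maxilla 3 or mandible 4). Of 24 Eph, semaphorin, slit and netrin guidance genes 2 were higher in the maxilla. Sema3e, a secreted guidance cue, differed by -1.24 ± 0.12 (adjusted p = 0.00130). Dcc, the netrin receptor, differed by -1.83 ± 0.40 (adjusted p = 0.0369), with 0.105 under the replicate block, 0.0564 to 0.126 without any 1 of 6 arrays, and -0.02 on another of its probe sets.

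Among skeletal and connective tissue genes, 2 of 15 cartilage, 1 of 8 bone and 1 of 10 tendon genes passed, against 6.46% of all genes in either direction. Of 15 cartilage genes the transcription factors Sox9 (-1.24 ± 0.26, adjusted p = 0.0285) and Sox5 (-1.13 ± 0.24, adjusted p = 0.0295) were higher in the maxilla and the rest, collagens and matrix proteins among them, did not pass (median -0.02). Sox9 had an adjusted p of 0.0514 with the replicate block. Leaving out any 1 of 5 arrays for Sox9 (0.0614 to 0.101) and any 1 of 7 for Sox5 (0.0570 to 0.101) ended the call. Of 8 bone genes Phex, a peptidase of bone-forming cells, passed (1.39 ± 0.32, adjusted p = 0.0432), not with the replicate block (0.121) nor without any 1 of 7 arrays (0.0595 to 0.135). Of 10 tendon genes the proteoglycan Dcn passed (0.70 ± 0.15, adjusted p = 0.0365, and 0.0635 to 0.113 without any 1 of 6 arrays). Dcn read 8.37, 8.34, 11.35 and 11.49 in the mandible and 7.55, 7.91, 10.31 and 10.97 in the maxilla, with overlap between the jaws and higher values in knockouts 3 and 4 of both.

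The jaw difference was then taken within each array set. In knockouts 1 and 2 alone 447 genes passed (3.23%), 163 (1.18%) with the mandible and 284 (2.05%) with the maxilla higher. In knockouts 3 and 4 alone 662 passed (4.78%), 287 (2.07%) and 375 (2.71%). On the mandible side 92 genes passed in both, 56.4% of the 163 and 32.1% of the 287, and on the maxilla side 71, 25.0% of the 284 and 18.9% of the 375. Foxa1 and C130021I20Rik passed in both with opposite signs. The difference between the sets was itself tested, and 60 genes passed (0.434%), upward in 27 (0.195%) and downward in 33 (0.238%). Foxa1, a forkhead factor of endoderm-derived and glandular epithelium, read 9.42, 9.33, 5.17 and 5.62 in the mandible and 7.95, 7.72, 9.0 and 8.87 in the maxilla. It was higher in the mandible by 1.54 in knockouts 1 and 2 (adjusted p = 0.0139) and higher in the maxilla in knockouts 3 and 4 (-3.54, adjusted p = 0.00541), and these differed by 5.08 ± 0.24 (adjusted p = 0.00164). Its relative Foxa2 was above the filter level in mandible 1 and 2 alone, at 7.89 and 8.27, and read 5.39 to 5.84 on the other 6 arrays. Osr1, a zinc finger factor of oral mesenchyme, was higher in the mandible by 3.41 in knockouts 1 and 2 and by 0.09 in 3 and 4, a difference of 3.32 ± 0.32 (adjusted p = 0.0129), and Dio2, which activates thyroid hormone, did likewise with 3.79 and 0.17. Neuronal genes were among those that differed: Tubb3, a neuronal tubulin, differed by -5.33 and -0.69 (difference between sets -4.64 ± 0.42, adjusted p = 0.0127), and Stmn2 by -6.21 and -1.52 (-4.69 ± 0.47, 0.0129). Pou3f3, a POU factor of the maxillary arch and of neurons, read 4.97 and 6.17 in mandible 1 and 2 and 9.60 to 11.10 on the other 6 arrays. Knockouts 1 and 2 are also the arrays with the 3' excess given above, and its part in these differences was not tested. The sets also differed in list means in both distal jaws. The erythroid mean was 9.99 to 10.45 in knockouts 1 and 2 and 8.85 to 9.03 in 3 and 4. The tendon mean was 6.57 to 6.91 and 8.43 to 8.85. The part of these differences between sets was not tested either. Without 1 array the count of 60 ranged from 1 (without mandible 3) to 2767 (without maxilla 1), and each of the 8 arrays moved it by over 1.5 times. Hand2, Pitx1, Fezf1, Otx2 and Myog kept their direction in both sets, with values of 6.08 and 4.45, 2.31 and 2.30, -3.85 and -4.44, -5.73 and -4.62, and 3.66 and 3.72.

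**Figure D4:**
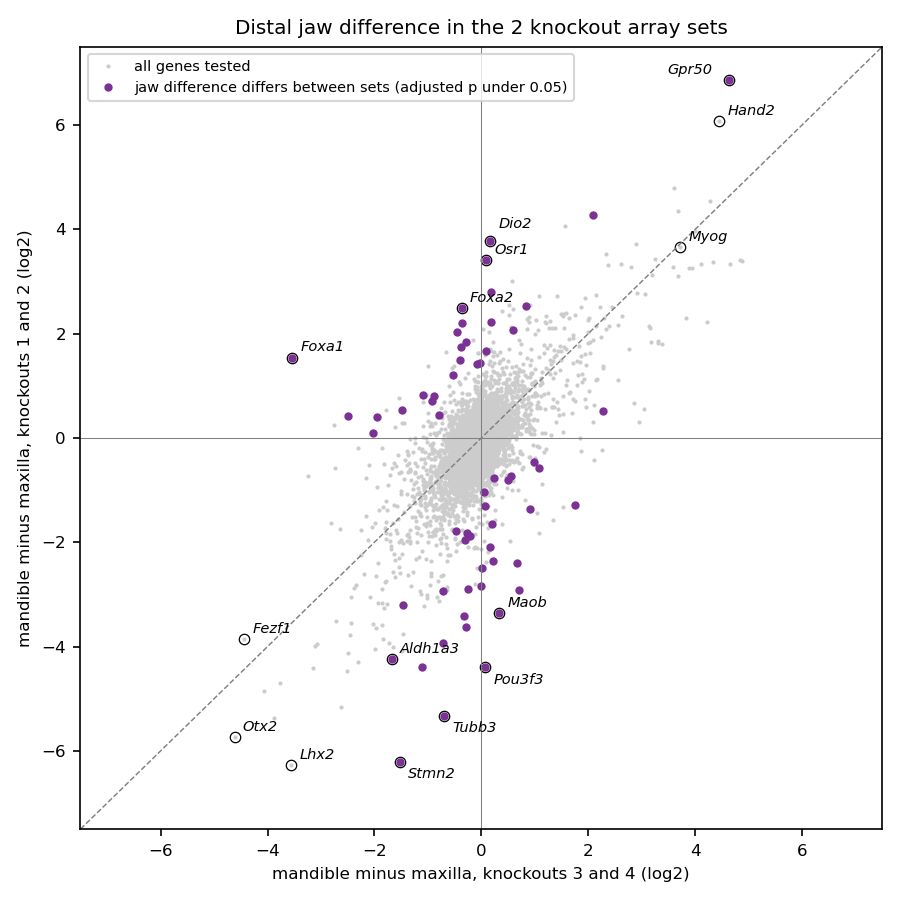
Each point is 1 gene, with its log2 difference of distal mandible minus maxilla in knockouts 3 and 4 on the x axis and in knockouts 1 and 2 on the y axis, and the dashed line marks equal values. The 60 genes whose difference itself differed between sets are purple; Foxa1 lies at -3.54 and 1.54, whereas Myog lies near the line at 3.72 and 3.66.

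The proximal ends of the same knockout jaws gave 243 genes (1.76%), 107 (0.773%) higher in the mandible and 136 (0.983%) in the maxilla. Of these, 46 and 71 were also called at the distal end in the same direction, which is 43.0% of the 107 and 13.8% of the 334, and 52.2% of the 136 and 12.7% of the 560. The mean differences of the ends share no arrays, but the distal knockout arrays share in the estimate of spread behind the proximal p-values. The calls at the ends are therefore not independent. The labels do not say whether the ends share embryos. The distal and proximal jaw differences themselves differed in 36 genes (0.26%), upward in 13 (0.094%) and downward in 23 (0.166%). With the replicate block 18 passed (0.13%), 6 (0.0434%) and 12 (0.0867%). The count lay between 8 (without proximal mandible 4) and 76 (without distal maxilla 4) when 1 array was left out, and any array but distal mandible 4, distal maxilla 2, proximal mandible 3 and proximal maxilla 1 moved it by over 1.5 times. Among the genes that passed were 2 Dlx genes and 2 transcripts named for the opposite strand of Dlx genes. Dlx3 and Dlx4, which did not pass at the distal end, were higher in the proximal mandible by 2.22 ± 0.24 (adjusted p = 0.000321) and 2.57 ± 0.20 (2.21e-05), and the distal minus proximal values were -2.28 ± 0.34 (adjusted p = 0.0145) and -2.48 ± 0.28 (0.00315). Dlx4os and Dlx6os1, named by the array annotation as transcripts opposite to Dlx4 and Dlx6, gave -2.63 ± 0.36 (0.0126) and -3.36 ± 0.59 (0.0362), Dlx6os1 not passing with the replicate block (0.0662). Dlx5 and Dlx6 were higher in the proximal mandible by 2.10 and 2.66 and in the distal by 0.47 and 1.36, but the test of the difference did not pass (adjusted p = 0.0730 and 0.248).

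Alx1 differed more between the proximal jaws than between the distal, by -5.37 ± 0.39 against -2.01 (difference 3.36 ± 0.55, adjusted p = 0.0265). Asb4 differed by 1.80 distally against -0.47 ± 0.18 proximally (2.27 ± 0.26, adjusted p = 0.00315). Pcp2, a Purkinje cell gene first described in the cerebellum, followed with 0.98 against -0.53 (1.51 ± 0.19, 0.00523). Bmper passed at both ends in opposite directions, -1.31 distally and 1.09 ± 0.20 (adjusted p = 0.0152) proximally, with a difference of -2.40 ± 0.29 (0.00387). Masp1, a complement protease (1.82 ± 0.34), and Postn, a matrix protein of fibrous tissue (1.72 ± 0.33), passed at the margin (0.0495 for both) and not with the replicate block (0.107 for both). Svopl, a transporter-like gene, had a larger value (-3.60 ± 0.52, adjusted p = 0.0137), but both its distal means lay below the filter level. Hand2 (3.39 ± 0.52), Pitx1 (1.87 ± 0.24) and Gsc (1.44 ± 0.26) were higher in the proximal mandible too, with adjusted p of 0.00493, 0.00119 and 0.0140.

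Control distal jaws had 2 arrays each, and 4 genes passed (0.0289%; 0.0145% each way): the zinc finger factor Gata2, Tcf21, Fezf1 and the secreted protein Pamr1, all 4 also called in the knockouts in the same direction. Left-out arrays moved that count to 379 (control maxilla 2), 79 (control mandible 1), 16 (control maxilla 1), 10 (knockout maxilla 2) and 7 (knockout mandible 1), the knockout arrays sharing in the estimate of spread. Of the 334 mandible genes 325 (97.3%) had the same sign in controls, where 45.7% of all genes had it, with medians of 0.76 in control and 0.99 in knockout. Of the 560 maxilla genes 526 (93.9%, against 54.3% of all genes) kept their sign, with medians of -0.64 and -0.88. These genes were chosen for their difference in the knockouts, which favours larger knockout medians, so the medians do not compare the genotypes. Hand2 read 12.72 and 11.49 in control mandible and 8.71 and 8.0 in control maxilla, Pitx1 11.96 and 11.54 against 10.18 and 8.74, and Otx2 3.89 and 4.17 against 10.76 and 7.84. None of these overlaps, but the control pairs were far apart: Myog read 9.11 and 6.38 in control maxilla, and Alx1 11.19 and 5.65 in control mandible. The test of the difference between genotypes called 0 of 13837 genes with limma (353 at an unadjusted p under 0.05, smallest adjusted p 0.354), and a test that finds none does not show that the jaw differences were alike. It called 4 without control mandible 1 and 49 without control maxilla 2. The smallest p-values belonged to Syt17, which differed by 2.01 ± 0.08 in knockouts and 0.59 ± 0.15 in controls (1.42 ± 0.19, adjusted p = 0.354), and Asb4, with 1.80 and 0.40 ± 0.17 (1.40 ± 0.20, 0.354). No set holds both genotypes, so the effect of set and that of genotype cannot be told apart.

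**Figure D5:**
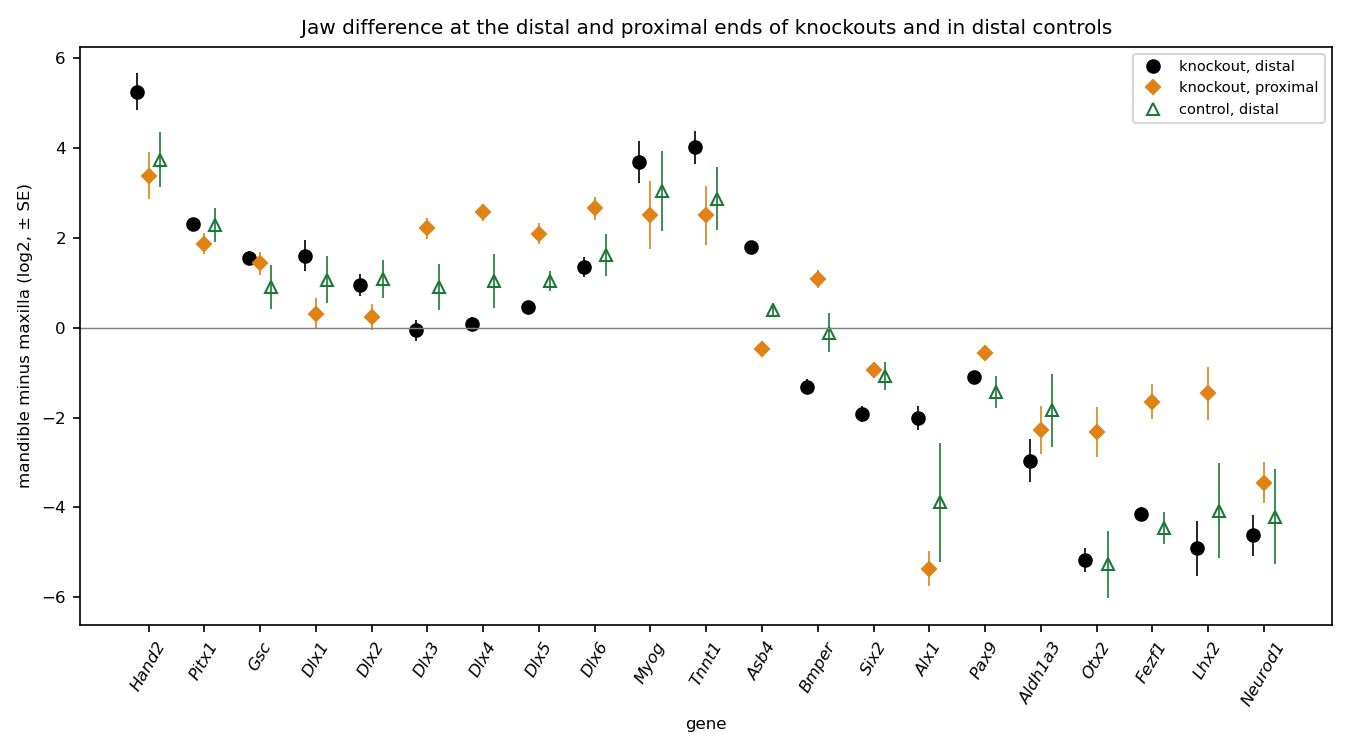
Log2 difference of mandible minus maxilla with its SE for 21 genes in the knockout distal jaws (black circles, n = 4 against 4), knockout proximal jaws (orange diamonds, 4 against 4) and control distal jaws (open triangles, 2 against 2). Dlx3 and Dlx4 lie near 0 distally and at 2.22 and 2.57 proximally, while Otx2 and Fezf1 lie lower distally (-5.18 and -4.15) than proximally (-2.32 and -1.64), a difference that did not pass for either.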

How the data were processed

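RNA of 24 samples was hybridised to Affymetrix mouse expression arrays. The authors deposited log2 expression values per probe set, made with RMA per the submitters' processing notes; its version, and whether all arrays went through 1 run, are not given in the sources used here. The column medians and ranges are those of a log2 scale.

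Of 45101 probe sets, 64 controls were left out; 34945 carry 1 gene symbol in the platform annotation, 932 several and 9160 none. Through a RefSeq table (GRCm38.p6) 34741 were matched and 0 symbols updated. Each of 18193 genes was represented by its brightest probe set on average over the 24 arrays. Genes above the 40th percentile of all values (6.07) on at least 2 arrays were kept, 13837 in all. Some dimmer probe sets that averaged below 6.07 on the 8 arrays showed smaller jaw differences. They gave -0.10 for Foxl2, 0.09 for Lhx6, 0.07 for Phex and -0.33 to -0.07 for Syt1. The jaws were compared with limma 3.58.1 in R 4.3.3 (lmFit, eBayes without trend, 2-sided), with array set as a block and Benjamini-Hochberg adjustment over all genes kept at 0.05. The interactions by end, genotype and array set were contrasts of fits of the 16, 12 and 8 arrays concerned. Only the model of the main comparison was tried on simulated data, drawn from that same model. Of 100 genes changed by 1 (log2) it recovered 80, and of 100 changed by 2 it recovered 95. There were 11 false calls. The interactions, the control and proximal contrasts and the replicate block were not tried in this way.

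Same-numbered arrays of both jaws were of the same sex. After array set was removed they deviated together weakly (correlation 0.100 for 1 and 2, 0.162 for 3 and 4, each set giving a single value). With only group means removed, same-numbered arrays correlated at 0.827, 0.366, 0.782 and 0.759 for 1 to 4. The other number of the set gave 0.330, 0.796, 0.722 and 0.765, higher for 2 and 4. For the replicate block the numbers were taken to pair the samples, which these values do not settle. This block is given where it changes a call. No 2 arrays were duplicates (highest correlation 0.995).

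Named genes are part of these: the 15 largest differences each way past the threshold without overlap, up to 4 members of each of 27 lists with the smallest p, and 5 each way per interaction. Predicted genes were only counted, 35 among those called, apart from 1 named beside Foxa1. Gene lists are described by counts and medians. The members and lists were chosen with earlier results of these data known. Promoter sequences are from RefSeq (GRCm38.p6).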

Additional observations from a re-analysis of the deposited data

Results flagged for a closer look

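In groups of 4 arrays, 4 of 214 groups of named genes and knockout arrays held a value far from the other 3 by Dixon's criterion, where chance gives about 1 in 20. They were Dlx1as in maxilla 4 at 6.20 (others 4.12 to 4.21), Pitx1 in mandible 4 at 11.65 (11.15 to 11.21), Hoxa2 in maxilla 2 at 4.20 (3.82 to 3.83) and Wif1 in maxilla 1 at 9.66 (10.60 to 10.74).

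The jaw difference differed between the distal and proximal ends of the knockouts (distal minus proximal, log2) for the homeobox genes Dlx3 (-2.28), Dlx4 (-2.48) and Alx1 (3.36), and for the transcripts Dlx6os1 (-3.36) and Dlx4os (-2.63). It differed too for Bmper (-2.40), Asb4 (2.27), Pcp2 (1.51), Masp1 (1.82), Postn (1.72) and Svopl, a transporter-like gene (-3.60).

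Between the array sets the distal jaw difference differed (knockouts 1 and 2 minus 3 and 4, log2) upward for Foxa1 (5.08), Dio2 (3.62), Osr1 (3.32), Nts, which encodes neurotensin (2.93), Foxa2 (2.86), Gpr50 (2.22) and Hoxa2 (1.69). It differed downward for Stmn2 (-4.69), Tubb3 (-4.64), Pou3f3 (-4.46), Maob, a monoamine oxidase (-3.69), Sst, which encodes somatostatin (-3.62), Aldh1a3 (-2.57), Dcc (-2.20) and Phex (-1.76). The 3' excess of knockouts 1 and 2 and the erythroid and tendon list means move with this contrast, and their part was not tested.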

How the results depend on the processing

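Counts of genes past the threshold depended on the block and on single arrays more than on the scaling. The main count of 894 became 258 without the array set block (51.2% of them higher in the mandible, against 37.4%), 595 with the replicate block and 447 with knockouts 1 and 2 only, and 441 to 1224 when 1 array was left out. It was 899 with each array centred on its median, 900 without the filter, 851 with the median of a gene's probe sets, 881 with a trended robust fit, 702 with the spread pooled over 24 arrays and 1009 with the 3' excess as a covariate. The 36 genes that differed by end became 18 with the replicate block and 8 to 76 without 1 array. The 0 by genotype ran from 0 to 49, the 60 by array set from 1 to 2767 and the 4 in controls from 4 to 379 without 1 array, with 13 after centring and 18 with median probe sets for the controls. The replicate block by genotype again gave 0. Foxa1 was reversed, at 1.54 in knockouts 1 and 2 only against -1.0 in all 8 arrays. The controls' alternatives were chosen after seeing the data. Where a group was brought to 1 array, it was assumed to vary like the others. Calls of single genes in the interactions were not refitted without each array. Causes were not tested.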

Other observations

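Imprinted genes, of which 1 parental copy is silent in some or all tissues and several of which regulate fetal growth, were a further group on the mandible side. The use of the parental copies in these jaws was not measured. The list of 32 was drawn up after the values of some members had been seen, so it carries no test. Of 28 measured, 16 were higher in the knockout distal mandible (against 2.41% of all genes) and Copg2 was higher in the maxilla, with a median of 0.58. The median was 0.23 between the proximal jaws and 0.45 between the control distal jaws. Dlk1, a Notch-related growth regulator, read 13.00, 13.12, 13.09 and 13.08 in the mandible and 10.28, 10.80, 10.59 and 10.68 in the maxilla (2.49, n = 4 against 4). Magel2, a gene of the Prader-Willi region, read 10.41, 10.85, 8.57 and 8.52 against 6.19, 6.50, 6.50 and 6.42 (3.18). Neither overlaps between the jaws.

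Outside the named genes, 4874 probe sets with no or several gene symbols passed the filter on low values. Tested and adjusted apart from the named genes, 169 (3.47%) were higher in the mandible and 49 (1.01%) in the maxilla. The named genes had 2.41% and 4.05%, so more of them were higher in the maxilla, the opposite of these probe sets.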
